A study of Mus musculus with 8 samples.

Results

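The 10 circadian clock genes Per1, Per2, Per3, Cry1, Cry2, Clock, Nr1d1, Nr1d2, Dbp and Tef were followed in inguinal white adipose tissue by RNA-seq and by Ribo-seq. They were taken by symbol, and all 10 were found among the 17264 genes of the series. The tissue came from male C57BL/6 mice, 9 weeks old and kept at 4 °C for 7 days, a treatment that turns part of this fat depot into heat-producing beige fat. Control mice (Y1CTL) carried floxed Ythdf1 alleles without Cre. Knockout mice (Y1cKO) carried the same alleles with Cre driven by the adiponectin (Adipoq) promoter, so that the other cells of the tissue kept the gene, which encodes a reader of N6-methyladenosine that promotes translation. Each genotype had 2 libraries per assay, which gave 8 in all, and the sources used here do not say whether they came from separate animals or from pools, so every p-value reflects the spread of these libraries and nothing wider, which may be technical. RNA-seq measured polyadenylated transcripts and Ribo-seq measured the fragments that ribosomes protect (footprints). Both are taken here to come from the same lysed tissue, with the larger part used for Ribo-seq. Whether libraries of equal number share a lysate was not tested. No source used here states the hour at which tissue was taken.

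The mammalian clock is a loop of transcription and translation. CLOCK and BMAL1 (Arntl) bind E-boxes and switch on the Per and Cry genes, whose proteins then block CLOCK and BMAL1. The nuclear receptors REV-ERBα (Nr1d1) and REV-ERBβ (Nr1d2) repress Arntl in turn, and DBP and TEF are activators that bind D-boxes in further clock-controlled genes. In mouse tissues Nr1d1, Dbp and the Per genes crest in the light phase or around dusk, and Arntl, Npas2 and Clock crest in the opposite phase.

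The binding letters of these factors are shown here because they are the sites through which the loop is known to act. RefSeq promoter windows on GRCm38.p6, running from 250 bases before to 50 bases after the gene start, were matched by symbol for 9 of the 10 members (all but Per2), in 13 windows. Each window was searched on both strands for the E-box CACGTG, the E′-box CACGTT, the D-boxes TTATGTAA and TTATGCAA, the RORE core TAGGTCA and the cAMP element TGACGTCA. No match overlapped another. The E-box stood in 4 of the 13 windows against 7.15% of all 32851 promoters, the E′-box in 3 against 4.68%, and the D-box in 2 against 1.66%. The RORE core and the cAMP element were in 0 of the 13 windows, against 2.61% and 1.79% of all promoters. The stretches with a match lay before the start, and capitals mark the motif.
Per1, chr11:69098771-69098944, plus strand: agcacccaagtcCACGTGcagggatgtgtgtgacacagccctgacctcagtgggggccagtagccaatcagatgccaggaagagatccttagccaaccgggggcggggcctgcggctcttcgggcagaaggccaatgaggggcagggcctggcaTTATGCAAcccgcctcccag
Per3, chr4:151044804-151044882, minus strand: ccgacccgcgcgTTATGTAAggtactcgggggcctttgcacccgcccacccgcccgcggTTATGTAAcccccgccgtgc
Cry1, chr10:85185097-85185145, minus strand: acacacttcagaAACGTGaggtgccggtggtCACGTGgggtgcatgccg
Cry2, chr2:92434218-92434247, minus strand: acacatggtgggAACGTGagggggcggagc
Nr1d1, chr11:98775388-98775417, minus strand: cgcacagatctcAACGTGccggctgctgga
Tef, first window, chr15:81802534-81802563, plus strand: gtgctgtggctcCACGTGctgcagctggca
Tef, second window, chr15:81811264-81811293, plus strand: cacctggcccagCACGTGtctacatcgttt
Per1 held an E-box 166 bases and a D-box 24 bases before its start, counted to the first base of the motif, whereas Per3 held a pair of D-boxes. Cry1 held both an E′-box and an E-box. The windows of Clock, Nr1d2 and Dbp held no match, which says only that these letters are not in them.

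Depth ran from 3958284 to 16429015 reads per RNA-seq library, with both Y1CTL libraries below both Y1cKO libraries, and from 7364523 to 11862838 reads in Ribo-seq. Levels are in RPKM, reads scaled by feature length and library depth, taken over the transcript length in RNA-seq and the coding length in Ribo-seq. Ythdf1 itself stood at 8.01 and 11.5 RPKM in Y1CTL and 7.17 and 7.98 RPKM in Y1cKO RNA-seq (log2 difference −0.33 ± 0.24 SE, limma adjusted p = 0.587). Its footprints were 17.3 and 16.0 RPKM in Y1CTL and 12.7 and 15.7 RPKM in Y1cKO (−0.23 ± 0.17 SE, adjusted p = 1.00). Both assays were thus lower in Y1cKO without overlap, but only just (7.98 against 8.01 RPKM and 15.7 against 16.0 RPKM). Such an order was found in 10.7% of all genes in RNA-seq and 14.1% in Ribo-seq. Neither assay passed the test in this whole tissue. The 10 adipocyte markers were all present in every library, with a median of 383 RPKM in Y1CTL RNA-seq replicate 2 and of 681 to 828 RPKM in the other RNA-seq libraries. All 10 were higher in Y1cKO transcripts, with a median log2 difference of 0.55 beside 0.17 for all genes tested. In 8 of 10 both Y1cKO libraries were above both Y1CTL libraries, against 36.9% of all genes. In footprints 8 of 10 were lower (median −0.06), and all 10 were lower in efficiency (−0.68 beside −0.17 for all genes). Of these markers 0 passed an adjusted p of 0.05. Libraries differed in other tissue. The 14 lymphocyte markers summed to 283 RPKM in Y1CTL RNA-seq replicate 2 but to 4.03 to 4.55 RPKM in the other 3 RNA-seq libraries, in which 2 to 8 of them were at 0, and to 871 to 1195 RPKM in Ribo-seq. The 10 skeletal muscle markers summed to 236 RPKM in Y1cKO RNA-seq replicate 1 and to 0.495 to 2.37 RPKM in the other RNA-seq libraries, in which 3 to 8 were at 0. The 10 beige markers summed to 451 to 3096 RPKM in RNA-seq, and 9 of 10 were lower in Y1cKO transcripts (median −1.45, 0 past the adjusted test). In footprints they went the other way, with 8 of 10 higher in Y1cKO (median 0.31, 0 past the adjusted test). Their Ribo-seq sums ran from 4392 RPKM in Y1CTL replicate 2 to 11235 RPKM in Y1CTL replicate 1. The part of this mixing in the values below was not tested, and in bulk tissue fewer cells of a type and less RNA per cell cannot be told apart.

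All 10 clock genes were detected in both assays, and all stood at modest levels. In RNA-seq their order, by the mean of 4 libraries, was Clock (15.3 ± 3.07 SD RPKM), Cry2 (13.6 ± 2.60), Nr1d1 (12.1 ± 3.77), Tef (8.93 ± 0.906), Cry1 (7.60 ± 1.53), Per1 (6.41 ± 1.59), Per3 (4.18 ± 0.778), Nr1d2 (2.98 ± 0.868), Dbp (2.10 ± 0.560) and Per2 (1.95 ± 0.734). Neighbours in that order overlapped over the libraries except Per1 and Per3. Clock lay at percentile 75.7 and Per2 at percentile 18.6 of the 12435 genes that averaged 0.5 RPKM or more.

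In Ribo-seq the order was Tef (17.4 ± 1.96 SD RPKM, n = 4), Cry2 (16.7 ± 0.853), Cry1 (12.1 ± 2.70), Clock (10.2 ± 0.408), Nr1d1 (9.96 ± 3.42), Nr1d2 (4.20 ± 0.543), Dbp (4.01 ± 1.71), Per1 (3.21 ± 0.272), Per3 (1.58 ± 0.332) and Per2 (0.854 ± 0.268). Tef thus came below Clock, Cry2 and Nr1d1 in transcripts and above them in footprints, and the 3 Per genes took the last places. Nr1d1 and Nr1d2, Per1 and Per3, and Per3 and Per2 did not overlap as neighbours; the others did.

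**Figure D1:**
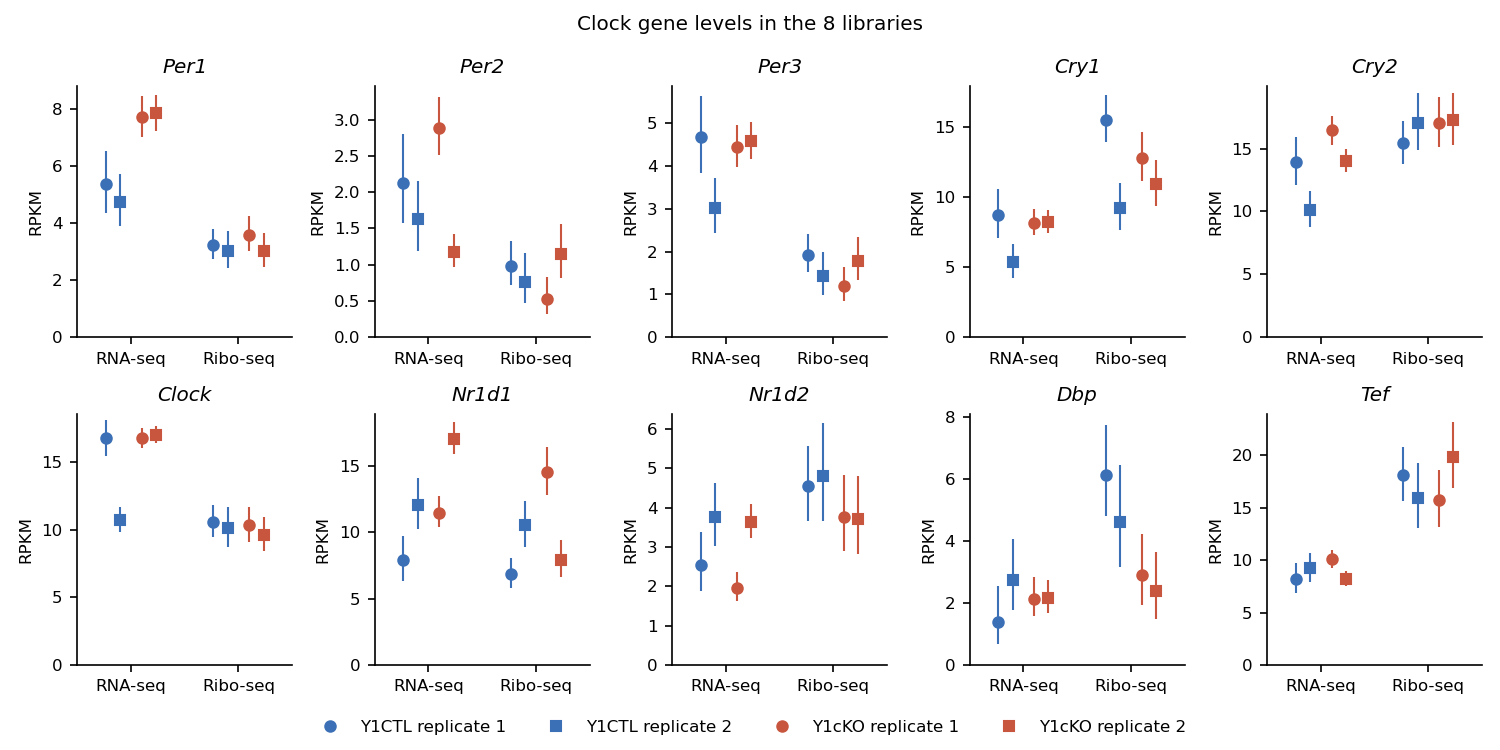
RPKM of each clock gene (vertical axis from 0) in the 4 RNA-seq and 4 Ribo-seq libraries, coloured by genotype, with circles for replicate 1 and squares for replicate 2. Bars are exact 95% Poisson intervals of the reads and cover counting error only. Dbp footprints are lower in both Y1cKO libraries, and Nr1d1 spreads as widely within a genotype as between genotypes.

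The question put to the genotypes was whether loss of Ythdf1 in adipocytes went with another level of clock transcripts. Of the 10 members, 0 passed an adjusted p of 0.05 in limma, beside 0% of the 12435 genes tested, and the same test on the recovered reads (voom) also called 0. At an unadjusted p under 0.05 the count was 1 of 10, against 11.8% of all genes. In all, 9 members were higher and 1 lower in Y1cKO, with a median log2 difference of 0.24 where the median of all genes was 0.17. With the libraries scaled to the same median, 6 were higher and 4 lower, with a median of 0.08. Both Y1cKO libraries stood above both Y1CTL libraries in 3 of 10 members, against 36.9% of all genes, and below them in 0 of 10, against 10.7%.

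Among the repressors, Per1 (ENSMUSG00000020893) gave the member with the smallest p. Its transcript stood at 5.35 and 4.74 RPKM in Y1CTL and at 7.70 and 7.83 RPKM in Y1cKO. The Y1cKO pair was thus higher than the Y1CTL pair with no overlap. The log2 difference was 0.58 ± 0.20 SE (limma, adjusted p = 0.402), or 0.42 after median scaling, and the adjusted p ran from 0.128 to 0.997 over the 13 alternatives.

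Per2 (ENSMUSG00000055866) stood at 2.12 and 1.62 RPKM in Y1CTL and at 2.89 and 1.18 RPKM in Y1cKO, so that the highest and the lowest library were both Y1cKO. The log2 difference was 0.02 ± 0.43 SE (95% interval −1.05 to 1.08). It turned to −0.13 after median scaling. Per3 (ENSMUSG00000028957) stood at 4.67 and 3.02 RPKM in Y1CTL and at 4.44 and 4.59 RPKM in Y1cKO, with the groups overlapping (0.23 ± 0.27 SE).

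For Cry1 (ENSMUSG00000020038) the Y1CTL transcripts were 8.68 and 5.33 RPKM and the Y1cKO transcripts 8.15 and 8.23 RPKM. Cry2 (ENSMUSG00000068742) gave 13.9 and 10.1 RPKM in Y1CTL and 16.4 and 14.0 RPKM in Y1cKO, its groups just apart. The differences were 0.25 ± 0.27 SE for Cry1 and 0.34 ± 0.23 SE for Cry2 on the log2 scale. For Per1, Per3, Cry1, Cry2 and Clock alike, Y1CTL replicate 2 was the lowest of the 4 libraries, and this was the library with the lymphocyte markers. Without it the differences were 0.50 for Per1, −0.05 for Per3, −0.08 for Cry1, 0.12 for Cry2 and 0.01 for Clock.

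Clock (ENSMUSG00000029238), the activator, stood at 16.7 and 10.7 RPKM in Y1CTL and at 16.8 and 17.0 RPKM in Y1cKO. The other libraries lay close together and the groups were just apart (log2 difference 0.32 ± 0.25 SE, adjusted p = 0.606).

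Nr1d1 (ENSMUSG00000020889) was the most variable of the well-expressed members. Its transcript stood at 7.89 and 12.1 RPKM in Y1CTL and at 11.5 and 17.1 RPKM in Y1cKO. The libraries of each genotype lay far apart, and the groups overlapped. The difference was 0.50 ± 0.29 SE (adjusted p = 0.521). The gene overlaps Thra on the opposite strand, and no source used here states whether strand was used in counting. Nr1d2 (ENSMUSG00000021775), its paralog, stood at 2.55 and 3.76 RPKM in Y1CTL and at 1.97 and 3.64 RPKM in Y1cKO, again with overlap, and was the only member lower in Y1cKO before median scaling (−0.17 ± 0.36 SE), which added Per2, Dbp and Tef. Without Y1CTL replicate 2 it was 0.07.

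The D-box activators did not separate the genotypes in transcripts. Dbp (ENSMUSG00000059824) stood at 1.38 and 2.74 RPKM in Y1CTL and at 2.14 and 2.15 RPKM in Y1cKO, and these rest on 10, 25, 48 and 65 reads. Its exact 95% Poisson interval in Y1CTL replicate 1, 0.659 to 2.53 RPKM, takes in both Y1cKO values. Tef (ENSMUSG00000022389) stood at 8.18 and 9.24 RPKM in Y1CTL and at 10.1 and 8.24 RPKM in Y1cKO, the narrowest span of the 10. The differences were 0.10 ± 0.37 SE for Dbp and 0.06 ± 0.21 SE for Tef, and both changed sign after median scaling (−0.04 and −0.10).

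In footprints the members again gave 0 of 10 past an adjusted p of 0.05 in limma, beside 0% of 12602 genes, and voom on reads called 0. At an unadjusted p under 0.05 the count was 1 of 10 against 2.75%. The 10 members were split, 4 higher and 6 lower in Y1cKO, with a median log2 difference of −0.03 beside 0.01 for all genes. Both Y1cKO libraries were above both Y1CTL libraries in 0 of 10 (15.4% of all genes) and below them in 2 of 10 (14.1%). The 2 were Dbp and Nr1d2.

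Dbp gave the largest difference. Its footprints stood at 6.14 and 4.60 RPKM in Y1CTL and at 2.91 and 2.38 RPKM in Y1cKO, from 71, 33, 27 and 21 reads. Both Y1cKO libraries were thus lower, though the Poisson intervals of Y1CTL replicate 2 (3.16 to 6.45 RPKM) and Y1cKO replicate 1 (1.92 to 4.24 RPKM) met. The log2 difference was −0.89 ± 0.23 SE (95% interval −1.44 to −0.34), and the adjusted p was 1.00, with a range of 0.239 to 1.00 over 12 alternatives. Leaving out each library in turn kept it between −1.08 and −0.70.

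Nr1d2 footprints were 4.54 and 4.79 RPKM in Y1CTL and 3.77 and 3.71 RPKM in Y1cKO. The pairs were close within each genotype and did not overlap, at a log2 difference of −0.28 ± 0.19 SE (adjusted p = 1.00). Nr1d1 footprints, by contrast, were 6.85 and 10.5 RPKM in Y1CTL and 14.5 and 7.92 RPKM in Y1cKO. They overlapped broadly (0.32 ± 0.32 SE), and without Y1cKO replicate 1 the difference was −0.10.

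Clock and Cry2 were the steadiest members in footprints. Clock stood at 10.6, 10.1, 10.3 and 9.62 RPKM, in the order Y1CTL 1 and 2, Y1cKO 1 and 2, and Cry2 at 15.4, 17.0, 17.0 and 17.3 RPKM. The highest library exceeded the lowest by a factor of only 1.10 for Clock and 1.12 for Cry2. Their log2 differences were −0.05 (95% interval −0.43 to 0.33) and 0.08 (−0.27 to 0.43). Tef stood at 18.1 and 15.9 RPKM in Y1CTL and 15.7 and 19.9 RPKM in Y1cKO, with overlap (0.05 ± 0.17 SE).

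Cry1 footprints were 15.5 and 9.19 RPKM in Y1CTL and 12.8 and 10.9 RPKM in Y1cKO, so that both Y1cKO values fell between the Y1CTL values. Per1 footprints were 3.22 and 3.02 RPKM in Y1CTL and 3.58 and 3.0 RPKM in Y1cKO, and the separation seen in its transcript was not seen here (0.06 ± 0.21 SE). Per2 and Per3 footprints ran from 0.530 to 1.14 RPKM and from 1.20 to 1.92 RPKM, the lowest of each in Y1cKO replicate 1. Per2 rests on 19 to 44 reads per library.

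**Figure D2:**
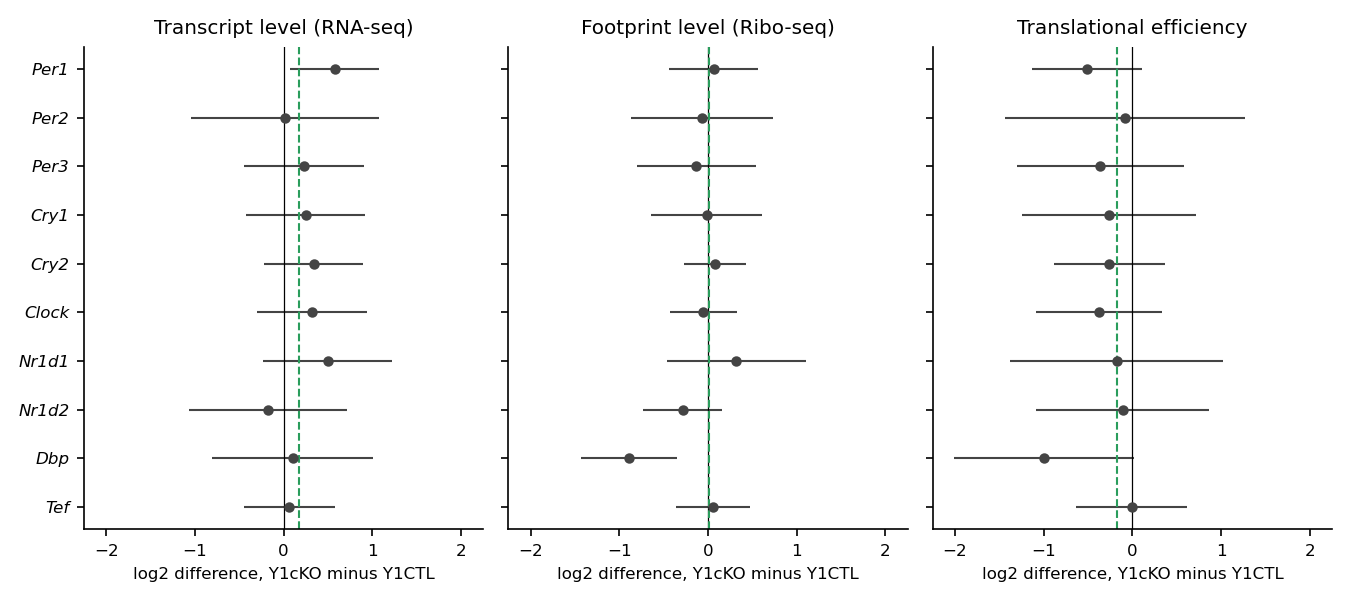
Log2 difference between Y1cKO and Y1CTL (horizontal axis) of each clock gene in transcripts, footprints and translational efficiency, with 95% intervals from limma. The dashed line is the median of all genes tested. The intervals of Per1 transcripts and Dbp footprints do not take in 0, and neither passed the adjusted test.

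Translational efficiency, the footprint level over the transcript level, was compared as the difference of the genotype effects between assays. Of the 10 members 0 passed an adjusted p of 0.05 in limma, beside 0% of 11792 genes, and voom called 0. At an unadjusted p under 0.05 it was 0 of 10 against 8.66%. All 10 had a lower log2 efficiency in Y1cKO, with a median of −0.26 beside −0.17 for all genes. After median scaling 7 of the 10 were lower, with a median of −0.11, and Per2, Nr1d2 and Tef were at 0.04, 0.02 and 0.14. The largest difference was that of Dbp, −0.99 ± 0.43 SE (adjusted p = 0.563), with −0.87 after scaling and −0.41 without Y1CTL replicate 1, whose Dbp transcript had 10 reads. Per1 followed with −0.51 ± 0.27 SE (adjusted p = 0.576). Tef was lowest in size, at −0.01 ± 0.27 SE.

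The level of the efficiency itself set the members apart from each other more than the genotype did. Over all libraries the mean log2 efficiency was −1.17 for Per3, −0.87 for Per1 and −0.83 for Per2, and these lie at percentiles 5.61, 8.57 and 9.14 of 11792 genes. Clock was at −0.55 (percentile 13.0) and Nr1d1 at −0.28 (percentile 17.7). The other 5 were above 0, with Cry2 at 0.30, Nr1d2 at 0.46, Cry1 at 0.63, Dbp at 0.74 and Tef at 0.92, the last at percentile 49.7. All 10 thus lay below the median of all genes, 0.94. Paralogs differed here, since Nr1d2 stood above Nr1d1 in both replicate numbers of both genotypes. These are descriptions without a test, over different lengths in the 2 assays.

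**Figure D3:**
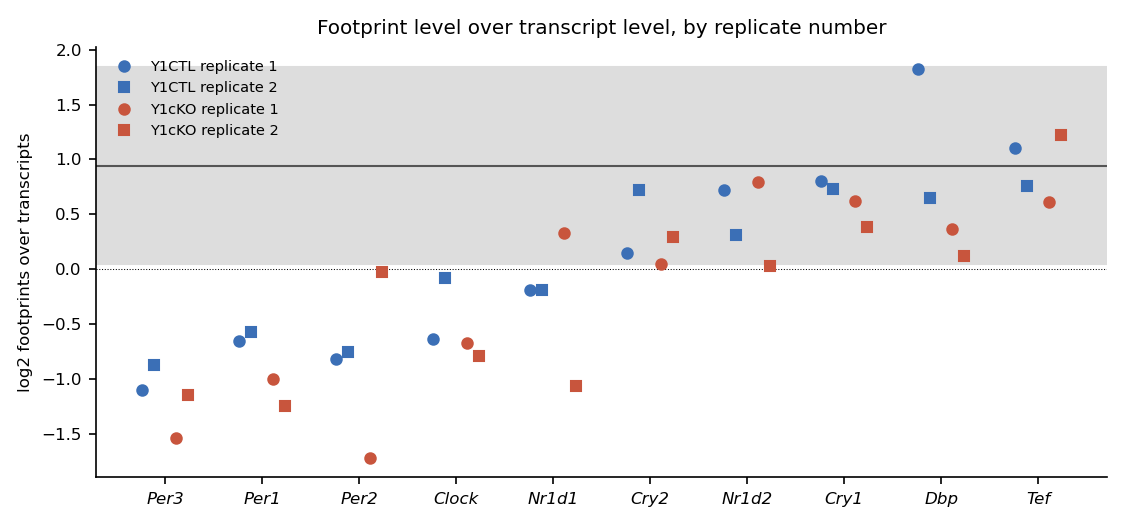
Log2 of footprint level over transcript level (vertical axis) for each clock gene, ordered by its mean, with a point per genotype and replicate number. The grey band holds the middle 50% of all genes and the line is their median of 0.94. All 12 points of the 3 Per genes lie below the band.

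Whether the libraries were taken at different times of day was examined through genes of opposite phase. The mean log2 level of 7 genes that crest in the day or at dusk (Nr1d1, Nr1d2, Dbp, Tef, Per1, Per2, Per3) was set against that of 5 that crest in the opposite phase (Arntl, Npas2, Clock, Cry1, Nfil3). The difference was −1.12 and −0.56 in Y1CTL RNA-seq and −1.19 and −1.18 in Y1cKO RNA-seq. In Ribo-seq it was −0.98 and −0.99 in Y1CTL and −1.28 and −1.09 in Y1cKO. All but Y1CTL RNA-seq replicate 2 thus fell within a narrow band, and that library, the one with the lymphocyte markers, was lower than the other RNA-seq libraries in the night-peaking genes (2.85 against 3.26 to 3.59) and within their range in the day-peaking genes (2.29 against 2.14 to 2.41). Its namesake in Ribo-seq lay beside the other footprint library of its genotype.

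Single ratios within the loop moved more. Arntl over Nr1d1, whose product represses Arntl, was 1.73 and 0.772 in Y1CTL RNA-seq and 1.28 and 0.945 in Y1cKO RNA-seq. In Ribo-seq it was 2.02 and 1.30 in Y1CTL and 1.11 and 1.99 in Y1cKO. The genotypes overlapped in both assays. Arntl over Dbp was 9.92 and 3.40 in Y1CTL and 6.88 and 7.49 in Y1cKO in RNA-seq, and 2.26 and 2.99 against 5.53 and 6.63 in Ribo-seq. In the latter both Y1cKO libraries were higher, since Dbp was lower and Arntl higher there, with Arntl footprints of 13.8 and 13.7 RPKM in Y1CTL and 16.1 and 15.8 RPKM in Y1cKO (log2 difference 0.20 ± 0.14 SE, adjusted p = 1.00). No hour can be read from these values, since they come with no time series.

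**Figure D4:**
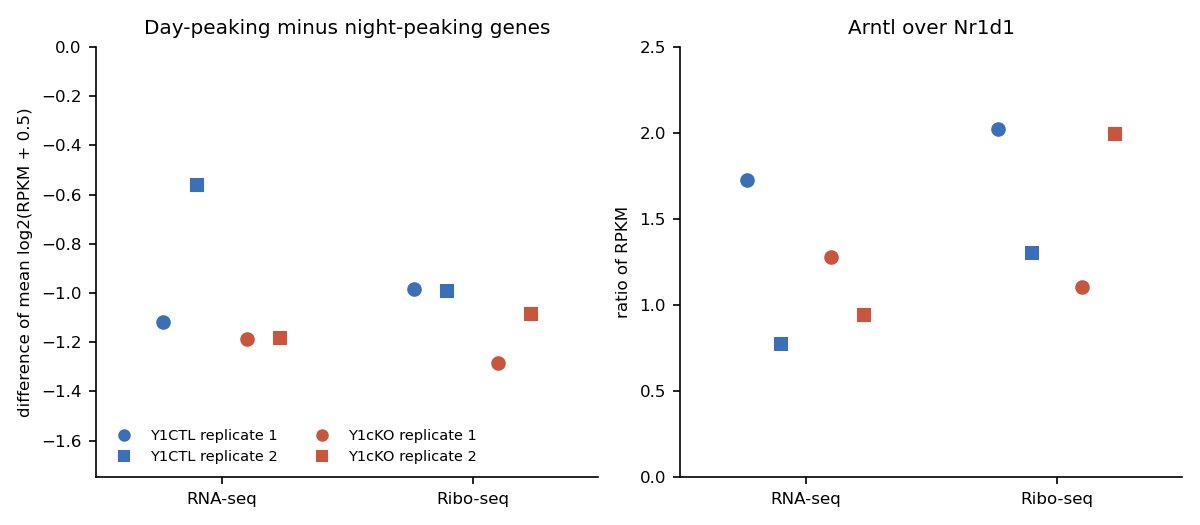
Left, the mean log2(RPKM + 0.5) of 7 day-peaking clock genes minus that of 5 night-peaking genes, by library. Right, the RPKM ratio of Arntl to Nr1d1. On the left 7 of the 8 libraries lie between −1.28 and −0.98, and both Y1cKO libraries lie below both Y1CTL libraries in each assay. In RNA-seq the nearest libraries of this order are at −1.18 and −1.12. Nfil3, 1 of the 5 night-peaking genes, was at 7.23 and 6.56 RPKM in Y1CTL RNA-seq and 14.8 and 14.1 RPKM in Y1cKO RNA-seq. Its part in this order was not tested. On the right the genotypes overlap in both assays.

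The 7 day-peaking members did not move as a block. Over 8 libraries centred within assay, the Pearson r of each with the mean of the other 6 ran from −0.45 for Per2 and −0.36 for Nr1d1 to 0.27 for Per1. Their mean spanned 0.27 on the log2 scale over the RNA-seq libraries and 0.18 over the Ribo-seq libraries. Over the 4 libraries of an assay, the median SD of log2 levels of the members was 0.32 in RNA-seq and 0.20 in Ribo-seq, beside 0.30 and 0.18 for all genes. The ratio of the highest to the lowest library ran from 1.23 (Tef) to 2.45 (Per2) in RNA-seq and from 1.10 (Clock) to 2.58 (Dbp) in Ribo-seq. Dbp and Nr1d1 were the most variable in footprints, at percentiles 96.1 and 93.0 of that SD.

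The order of replicates within a genotype was compared between assays. This takes as a premise that libraries of equal number share a lysate, which was not tested. In Y1CTL, 7 of 10 members differed in the same direction between replicates 1 and 2 in both assays, where 43.9% of 6621 genes did. These 6621 genes had to reach a higher mean level in both assays than the tests above asked for. Per1, Per2, Per3, Nr1d2 and Dbp did not reach it in both, so the share is not over genes of like level. Nr1d1 was higher in replicate 2 by 0.58 in RNA-seq and by 0.58 in Ribo-seq on the log2 scale, and Cry1 was lower there by amounts of −0.66 and −0.72. Dbp went apart, with 0.79 in RNA-seq and −0.38 in Ribo-seq.

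In Y1cKO 1 of 10 members, Per3, kept its direction (2 of 10 after median scaling), where 40.1% of the same 6621 genes did. The opposite moves were large for Nr1d1 (0.55 in RNA-seq and −0.84 in Ribo-seq) and for Per2 (−1.01 and 0.68). Tef likewise gave −0.28 and 0.33. In the RNA-seq tables of Y1cKO the column heading numbers each library differently from its title. The titles were followed here. With the numbers of the headings, a choice added after the data were seen, 9 of 10 members kept their direction in Y1cKO, where 59.9% of the same genes did. The exchange only turns the sign of each RNA-seq difference. These values therefore mirror those by the titles and cannot tell which numbering holds. Across the same 6621 genes the Pearson r of the replicate difference between assays was −0.18 in Y1CTL. In Y1cKO it was −0.35 by the titles and, as its mirror, 0.35 by the headings, given as a description. Which numbering holds was not tested, and lymphocyte and muscle markers also differed between the RNA-seq replicates but not in like manner between the Ribo-seq replicates.

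**Figure D5:**
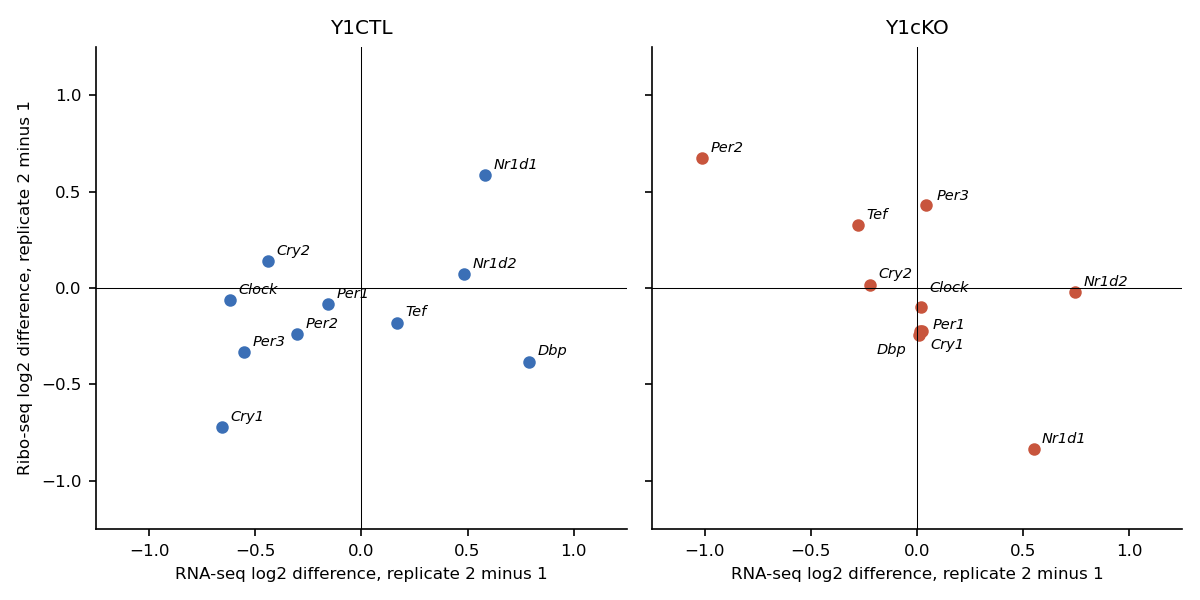
Log2 difference of replicate 2 minus replicate 1 in RNA-seq (horizontal) and Ribo-seq (vertical) for each clock gene, by genotype. In Y1CTL 7 of 10 genes lie in the quadrants of equal sign, with Nr1d1 and Cry1 at opposite ends. In Y1cKO 1 of 10 does by the titles and, as the mirror of that count, 9 of 10 by the column headings.

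The partners of the members in the loop were read from a list of 12 further clock transcription factors, of which 9 were tested in RNA-seq and 10 in Ribo-seq. None passed an adjusted p of 0.05. In transcripts 6 were higher and 3 lower in Y1cKO, with a median of 0.35 beside 0.17 for all genes, and both libraries stood above the control pair in 5 of 9 and below it in 1 of 9, against 36.9% and 10.7% of all genes. Arntl (BMAL1) transcripts were 13.6 and 9.32 RPKM in Y1CTL and 14.7 and 16.1 RPKM in Y1cKO (0.43 ± 0.24 SE, adjusted p = 0.50). Npas2, a paralog of Clock, was at 4.17 and 3.76 RPKM in Y1CTL and 6.67 and 6.38 RPKM in Y1cKO (0.65 ± 0.21 SE, adjusted p = 0.402). Nfil3, the repressor that competes with DBP and TEF for the D-box, was at 7.23 and 6.56 RPKM in Y1CTL and 14.8 and 14.1 RPKM in Y1cKO (1.02 ± 0.19 SE, adjusted p = 0.401). Its footprints overlapped between genotypes (−0.18 ± 0.21 SE). Bhlhe40, a repressor at E-boxes, was lower in both assays, by log2 differences of −0.62 ± 0.25 SE in transcripts and −0.57 ± 0.19 SE in footprints (adjusted p = 0.420 and 1.00).

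Among 14 regulators of clock proteins, 10 of 13 tested were higher in Y1cKO transcripts (median 0.27) and 11 of 13 lower in efficiency (median −0.31), and none passed the adjusted test. Btrc, a ubiquitin ligase subunit that acts on PER proteins, led with transcripts of 2.55 and 3.25 RPKM in Y1CTL and 7.12 and 6.70 RPKM in Y1cKO (1.13 ± 0.23 SE, adjusted p = 0.401), while its footprints differed by 0.05 ± 0.17 SE. Prkaa1 and Csnk1d followed through their efficiency, with differences of −0.55 ± 0.21 SE and −0.38 ± 0.20 SE, and Usp2 through its footprints, with −0.65 ± 0.37 SE. Of 14 genes known to cycle in many mouse tissues, 5 of 13 tested were higher and 8 lower in transcripts, with a median of −0.17. Tspan4, Ppard, Lonrf3 and Leo1 had the smallest p there, with 1.45 ± 0.32 SE, 0.59 ± 0.18 SE, 1.04 ± 0.35 SE and 0.64 ± 0.23 SE (limma, adjusted p from 0.401 to 0.404). Their footprints differed by 0.09, 0.03, −0.02 and −0.14. Lonrf3 transcripts were low, at 0.694 to 2.39 RPKM. None of this list passed the adjusted test.

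Per1 is also a target of the glucocorticoid receptor, and a list of such targets was read beside it. Of 14 tested, 10 were higher and 4 lower in Y1cKO transcripts, with a median of 0.68, and 9 had both libraries above the control pair, against 36.9% of all genes. The 10 adipocyte markers were higher as well, with a median of 0.55 and 8 of 10 above the control pair, and their part in this was not tested. None passed an adjusted p of 0.05, and 8 had an unadjusted p under 0.05, Per1 among them, against 11.8% of all genes. Zbtb16 (1.02 ± 0.19 SE), Errfi1 (0.93 ± 0.20 SE) and Mt2 (1.76 ± 0.41 SE) had the smallest p. In footprints the median of the list was 0.05. Of 12 genes induced by cAMP, another input to Per1, 6 of 11 tested were higher and 5 lower in transcripts (median 0.14), with Dio2 at −1.57, Nr4a3 at −1.03 and Sik1 at 0.48. Dio2 is also 1 of the beige markers above, of which 9 of 10 were lower in Y1cKO transcripts. Nr4a3 transcripts were low, at 0.117 to 1.23 RPKM. Of 9 genes that vary with body temperature, 6 of 8 tested were higher, with a median of 0.18 beside 0.17 for all genes. Cirbp was at 1.09 ± 0.19 SE, Hsp90aa1 at 0.28 and Hsph1 at −0.22. Genes that rise with warmth and genes that rise with cold were not split, so this count has no single direction. None of the cAMP and temperature lists passed the adjusted test in any of the 3 comparisons. Every transcript difference given by value in these lists kept its sign after median scaling.

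The genes outside these lists whose pattern was most like the mean of the 7 day-peaking members were 2310009A05Rik, Slc2a8, Hba-a2, Rnaseh2c and Znhit2, with Pearson r from 0.76 to 0.80 over 8 libraries, among 297 genes with a centred SD of at least 0.5. Since the 7 members did not move together, and libraries share depth and tissue mixture, these are named as a description only. Hba-a2 may share reads with a near-identical copy.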

How the data were processed

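Gene levels were taken from 8 tables, 1 per library. Per the submitters' processing notes, reads were mapped with HISAT2 2.2.1 to mm8, and DESeq2 is also named with no role stated. The authors deposited RPKM values, which used the length of the whole transcript in RNA-seq and that of the coding part in Ribo-seq. Divided by the value of 1 read, at least 99.9% of them came within 0.01 of a whole number, which recovered reads and depth. For the counter, annotation release and strand setting, nothing is given in the sources used here. Genes that a Ribo-seq table did not list were set to 0.

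Genotypes were compared with limma 3.58.1 in R 4.3.3 on log2(RPKM + 0.5), with a mean-variance trend, over genes averaging 0.5 RPKM or more. Each assay was fitted by itself, and translational efficiency was the assay by genotype interaction in a joint fit of 8 libraries. Fold changes are on that log2 scale, which understates changes of low genes. P-values were two-sided and adjusted by Benjamini-Hochberg over all genes tested. The step was tested on simulated data. Replicate pairs were no copies, since their reads differed with chi-square values per degree of freedom from 12.3 to 36.2. Intervals of single values are exact Poisson intervals for the reads and cover counting error only. Members and gene lists were chosen with earlier results of these data known. All 10 members were described. Of each further list, the 3 or 4 genes with the smallest p in any comparison were named, with Arntl and Npas2. Alternatives were other pseudocounts and filters, median scaling, no trend, voom on reads, the replicate block and leaving out each library.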

Additional observations from a re-analysis of the deposited data

How the results depend on the processing

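No member passed an adjusted p of 0.05 under any setting run. The number of genes past it was 0 in all 3 comparisons, and with libraries left out in turn it ran from 0 to 665 in transcripts, from 0 to 51 in footprints and from 0 to 963 in efficiency, the highest each time without Y1CTL replicate 1 (52, 19 and 0 without Y1CTL replicate 2), where a lone library is assumed to vary like the rest. With the replicate number as a block it was 0 in each comparison, and with the Y1cKO RNA-seq numbers crossed, a choice made after seeing the data, 2 in transcripts and 0 in efficiency. Of 375 member values under alternatives 341 kept their direction and 34 turned. Median scaling turned Per2 (−0.13), Dbp (−0.035) and Tef (−0.10) in transcripts and Per2 (0.043), Nr1d2 (0.022) and Tef (0.14) in efficiency. Per2 transcripts also turned with a pseudocount of 0.1 (−0.00043) and with voom (−0.055). Leaving out libraries turned transcripts of Per2 (−0.49 to 0.52), Per3 (−0.046 to 0.51), Cry1 (−0.080 to 0.58), Nr1d2 (−0.55 to 0.20), Dbp (−0.29 to 0.50) and Tef (−0.073 to 0.20). It turned footprints of Per1 (−0.047 to 0.18), Per2 (−0.41 to 0.27), Per3 (−0.35 to 0.086), Cry1 (−0.38 to 0.34), Nr1d1 (−0.10 to 0.74) and Tef (−0.11 to 0.22). It turned efficiency of Per2 (−0.93 to 0.76), Cry2 (−0.55 to 0.026), Nr1d1 (−0.87 to 0.52), Nr1d2 (−0.49 to 0.27) and Tef (−0.31 to 0.29). The day minus night difference moved by more than the replicate spread with pseudocounts of 0.1 and 1 in Y1cKO RNA-seq replicate 1 (−1.27 and −1.10) and 2 (−1.28 and −1.08), Y1CTL Ribo-seq replicate 1 (−1.07 and −0.90) and 2 (−1.10 and −0.89) and Y1cKO Ribo-seq replicate 1 (−1.45 and −1.14). Members of equal replicate order in Y1cKO were 2 after scaling and 9 with the RNA-seq numbers exchanged, the latter a mirror of the count by the titles. The cause of these moves was not tested. Depth limits Dbp and Per2, with as few as 10 and 19 reads in a library.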
